A study of Rattus norvegicus with 8 samples.

Results

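The genes described here mark T cells and their main lineages in the rat colon. They are 10 of the 19899 genes tested and were chosen by name, though with earlier results of these data known. Cd3d, Cd3e, Cd3g, Cd5 and Lck are shared by T cells of all kinds. Cd4 stands for helper T cells, Cd8a, Cd8b and Gzmb for cytotoxic cells, and Foxp3 for regulatory T cells. All 10 had a probe that passed the filter on dim signals. The tissue was a 5 mm piece from the middle of the colon of female Wistar rats aged 6 weeks, hybridised on 2-colour Agilent arrays. The REF group ate the standard AIN-93M diet. The C10 group ate the cocoa diet, in which cocoa powder brought polyphenols as well as soluble and insoluble fiber. The CF group ate the cocoa fiber diet, with fiber from cocoa but few polyphenols, and the I group ate the inulin diet, with a soluble fiber that is not from cocoa. Each group had 4 rats, and the 16 rats were spread over 8 arrays, each array holding 1 rat in Cy5 and another in Cy3.

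A T cell recognises its antigen through a receptor whose signal is passed into the cell by the CD3 chains, and the kinase Lck starts that signal together with the coreceptors CD4 or CD8. In the colon, T cells sit singly within the epithelium and the lamina propria and also gather, with B cells, in lymphoid follicles of the wall. Helper, cytotoxic and regulatory T cells are told apart by their coreceptor and by products such as granzyme B or the transcription factor Foxp3. In a piece of whole tissue, fewer cells of a type and less RNA per cell cannot be told apart.

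Cd3g, Cd3d and Cd3e are neighbours in the rat genome, with no other gene between them in the RefSeq gene table, and Cd8b and Cd8a have only a pseudogene, Tuba1b-ps8, between them. RefSeq promoter windows, from 250 bases before to 50 bases after a start site, were matched by symbol for 8 of the 10 genes, not for Cd4 and Cd8b. Those of the 3 CD3 genes are shown because these genes lie side by side and their signals varied most between rats, and that of Gzmb because its signal took another course. All are on build GRCr8 and run 5′ to 3′. The Cd3g window was chr8:54183869-54184168 on the minus strand, the Cd3d window chr8:54185269-54185568 on the plus strand, the Cd3e window chr8:54211721-54212020 on the minus strand and the Gzmb window chr15:34462420-34462719 on the minus strand. Capitals mark the letters AGGAAG (a core bound by ETS factors), TGTGGT (a core bound by Runx factors) or CANNTG (an E box), each on either strand.
Cd3g: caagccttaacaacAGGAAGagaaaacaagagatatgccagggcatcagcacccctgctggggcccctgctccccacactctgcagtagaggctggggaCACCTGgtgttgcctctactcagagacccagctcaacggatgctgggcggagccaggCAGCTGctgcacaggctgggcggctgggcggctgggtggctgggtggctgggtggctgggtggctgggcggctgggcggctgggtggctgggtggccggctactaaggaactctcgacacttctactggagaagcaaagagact
Cd3d: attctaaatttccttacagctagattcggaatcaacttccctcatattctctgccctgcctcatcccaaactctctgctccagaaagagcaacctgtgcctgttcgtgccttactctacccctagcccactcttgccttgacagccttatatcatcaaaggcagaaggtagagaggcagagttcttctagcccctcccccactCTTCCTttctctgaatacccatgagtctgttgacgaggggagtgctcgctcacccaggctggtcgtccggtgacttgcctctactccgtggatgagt
Cd3e: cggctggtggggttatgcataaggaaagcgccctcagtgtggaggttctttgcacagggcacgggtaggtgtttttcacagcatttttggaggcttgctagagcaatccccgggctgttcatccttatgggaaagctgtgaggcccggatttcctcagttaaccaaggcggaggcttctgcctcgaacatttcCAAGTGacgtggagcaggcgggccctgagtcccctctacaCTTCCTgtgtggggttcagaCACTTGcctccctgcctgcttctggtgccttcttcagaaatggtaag
Gzmb: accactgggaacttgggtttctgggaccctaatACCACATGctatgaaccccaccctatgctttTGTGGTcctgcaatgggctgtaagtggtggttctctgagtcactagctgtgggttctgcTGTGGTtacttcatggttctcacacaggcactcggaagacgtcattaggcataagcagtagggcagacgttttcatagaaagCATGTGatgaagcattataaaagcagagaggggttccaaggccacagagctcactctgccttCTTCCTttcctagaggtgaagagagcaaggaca

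AGGAAG stood in all 4 of the windows shown, its first base at position -236 from the start site in Cd3g, -47 in Cd3d, -17 in Cd3e and 17 in Gzmb. Across 33469 rat promoter windows of the same length, 34.5% held it, against 7 of the 9 windows of these genes (Lck has 2). TGTGGT was found 3 times in the Gzmb window, once overlapping a CANNTG match by 4 bases. It occurred in 2 of the 9 windows and in 17.3% of all windows, and CANNTG in 7 of 9 and in 72.1% of all. These matches describe letters only.

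The arrays were evenly bright. Median signals ranged from 302.5 to 426.5 in Cy5 with 74.3% to 83.9% of spots well above background, and from 109.5 to 169 in Cy3 with 68.6% to 75.3%, and 0 spots were saturated. As a check of the tissue, Epcam, the epithelial adhesion molecule, lay at 14.57 to 15.54 log2 units and the smooth muscle actin Acta2 at 10.53 to 12.41, both well above background in all rats. C10 rat 1 stood apart, with the lowest Acta2 signal and a smooth muscle list level of -2.09, while the other 15 rats lay between -0.50 and 0.58 (a list level is the mean deviation of its genes from their average over the rats, in log2 units). Its macrophage list level of -0.61 was also below the -0.45 to 0.31 of the other rats. Many of the results below are given with and without this rat, but not all.

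Of the T cell genes 7 varied widely between rats of the same diet, and Cd4, Gzmb and Foxp3 had narrower ranges. Cd3d, Cd3e and Cd3g spanned 10.9-fold, 5.02-fold and 11.1-fold over the 16 rats, Cd8a 4.49-fold, Cd5 3.77-fold, Lck 3.21-fold and Cd8b 2.51-fold. Gzmb, Cd4 and Foxp3 spanned 2.37-fold, 1.91-fold and 1.14-fold. The offset of 50 added to every signal before the logarithm compresses the folds of dim probes. Without it the same ranges were 12.9-fold for Cd3d, 11.5-fold for Cd3e, 13.9-fold for Cd3g and 8.32-fold for Cd8a. They were 9.14-fold for Cd5, 5.23-fold for Lck and 5.79-fold for Cd8b, and 3.05-fold for Cd4, 3.88-fold for Gzmb and 1.42-fold for Foxp3. Levels are given per probe and are not compared between genes.

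Cd3d encodes the delta chain of the CD3 complex. Its log2 signal was 9.28, 8.75, 11.11 and 8.87 in REF rats 1 to 4, and 11.57, 8.33, 10.18 and 8.31 in C10 rats 1 to 4. It was 9.79, 9.01, 11.67 and 8.57 in CF rats 1 to 4, and 11.76, 8.86, 10.67 and 8.94 in I rats 1 to 4. REF rat 3, C10 rat 1, CF rat 3, I rat 1 and I rat 3 were the highest, at least 1 from each diet, and all diets overlapped. The mean was 9.50 ± 1.10 in REF, 9.60 ± 1.58 in C10, 9.76 ± 1.37 in CF and 10.06 ± 1.41 in I (SD, n = 4 each), so the spread within a diet exceeded the 0.56 between the lowest and the highest diet mean.

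Cd3e, the epsilon chain needed for the assembly of the receptor, was 7.04, 6.70, 8.51 and 6.70 in the REF rats and 8.63, 6.75, 7.48 and 6.30 in the C10 rats. In the CF rats it was 7.08, 6.65, 8.57 and 6.64, and in the I rats 8.59, 6.61, 8.06 and 6.83. The same 5 rats were again the highest, with a gap of 0.58 to C10 rat 3 below them. Diet means lay within 0.29 of each other, at 7.23 ± 0.86 in REF, 7.29 ± 1.02 in C10, 7.24 ± 0.92 in CF and 7.52 ± 0.96 in I (SD, n = 4 each).

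Cd3g, the gamma chain, was 10.27, 8.72, 10.87 and 9.95 in the REF rats and 11.12, 8.09, 9.86 and 8.97 in the C10 rats. The CF rats had 9.44, 8.66, 11.56 and 9.52, and the I rats 11.56, 9.44, 10.43 and 8.73. The highest 5 rats were those of Cd3d and Cd3e, but REF rat 1 came close to them. The group means were 9.95 ± 0.91 in REF, 9.51 ± 1.29 in C10, 9.80 ± 1.24 in CF and 10.04 ± 1.23 in I (SD, n = 4 each).

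Cd5, a surface receptor that tempers T cell receptor signals, ranged from 6.27 in C10 rat 4 to 8.19 in I rat 1 and was well above background in 12 of 16 rats. Lck ranged from 6.75 in C10 rat 4 to 8.43 in CF rat 3, and was well above background in all 16. For both genes the 5 highest rats were the same as for the CD3 genes. Among the cytotoxic markers, Cd8a and Cd8b, the chains of the CD8 coreceptor, did likewise. Cd8a was 7.26, 6.82, 8.20 and 6.81 in the REF rats, 8.44, 6.80, 7.67 and 6.52 in the C10 rats, 7.23, 7.13, 8.69 and 6.61 in the CF rats, and 8.68, 6.73, 7.84 and 6.93 in the I rats. Cd8b ranged from 6.14 in REF rat 2 to 7.47 in I rat 1 and was well above background in 14 rats.

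**Figure D1:**
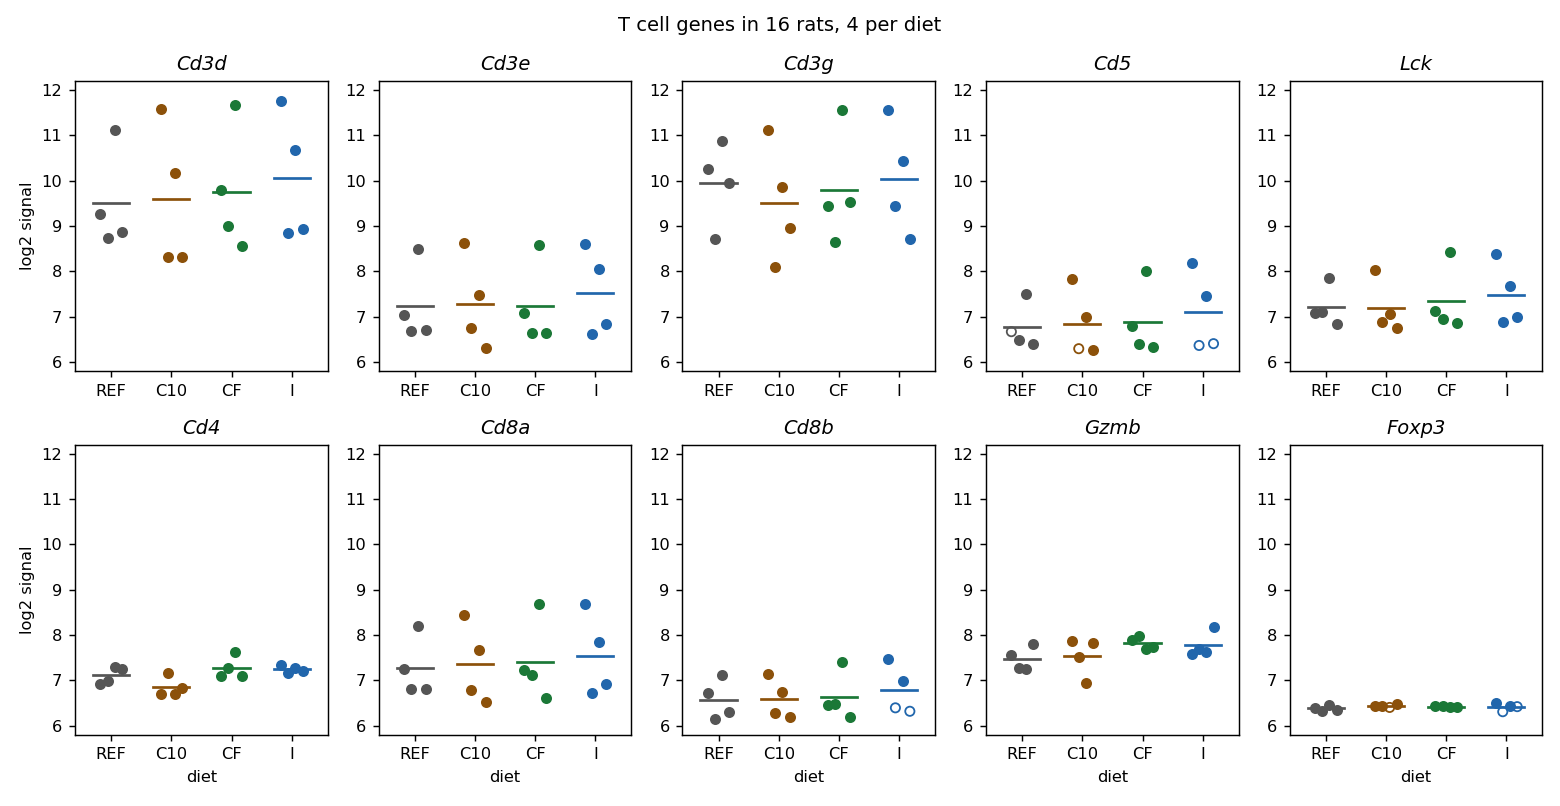
Log2 signal (vertical axis, offset 50) of the 10 T cell genes in the 16 rats by diet, with 1 point per rat, open where the probe was not well above background, and a bar at the mean of the 4 rats. Over the 16 rats Cd3d, Cd3e, Cd3g, Cd5, Lck, Cd8a and Cd8b spanned 2.51-fold to 11.1-fold, and Cd4, Gzmb and Foxp3 1.14-fold to 2.37-fold. Within C10, Gzmb (SD 0.43) varied about as much as Cd8b (SD 0.44).

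Cd4, Gzmb and Foxp3 spanned less. Cd4, the coreceptor of helper T cells that rat macrophages also carry, was 6.92, 6.99, 7.31 and 7.26 in the REF rats and 6.70, 7.17, 6.71 and 6.82 in the C10 rats. It was 7.10, 7.27, 7.63 and 7.10 in the CF rats and 7.33, 7.16, 7.28 and 7.21 in the I rats. Of the C10 rats 3 were below all rats of the other diets, and C10 rat 2 lay among them. C10 rat 1, in which the CD3 genes were among the highest, had the lowest Cd4 signal of the 16, while the other 4 rats high in the CD3 genes were the 4 highest in Cd4.

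Gzmb encodes granzyme B, a protease of cytotoxic granules that NK cells also make. Its signal was 7.56, 7.28, 7.25 and 7.81 in the REF rats, 7.86, 7.52, 6.93 and 7.82 in the C10 rats, 7.90, 7.98, 7.70 and 7.74 in the CF rats, and 7.59, 7.70, 7.63 and 8.18 in the I rats. The CF rats were the closest to each other, and REF rat 4, C10 rats 1 and 4 and I rat 2 lay inside their range. Foxp3, the lineage factor of regulatory T cells, was dim. Its probe lay between 6.31 and 6.49 in all rats, was well above background in 13 of them, and had raw intensities of 41.8 to 114, so a difference between diets would have been hard to see.

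The standard deviation within diets set the genes apart. It was 1.38 for Cd3d, larger than that of 99.7% of all genes tested, 1.18 for Cd3g (99.5%), 0.94 for Cd3e (99.1%), 0.84 for Cd8a (98.9%), 0.74 for Cd5 (98.5%), 0.62 for Lck (97.7%) and 0.49 for Cd8b (95.9%). Gzmb had 0.29 (85.7%), Cd4 0.20 (62.2%) and Foxp3 0.05 (0.191%), beside a median of 0.17 over all genes. The offset compresses dim probes, so these places also reflect brightness. Foxp3 spanned 0.18 log2 units on this scale, 0.50 without the offset and 1.08 in the signals processed by the scanner software.

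Differences between diets were then tested with limma across all genes in 1 fit of the 16 rats, with diet and dye as terms and the array as a block, and p-values were adjusted by the Benjamini-Hochberg method. An adjusted p under 0.05 is the threshold for a call. The 3 comparisons with REF share the REF rats and are not independent. Because the fit weighs the rats sharing an array, its differences are not those of the plain diet means, and for Cd3g in the I group the plain means differed by 0.09 upward while the fit gave -0.24.

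Compared to the REF group, the C10 group had 0 of the 10 T cell genes called, where 1.02% of all genes tested were. At an unadjusted p under 0.05 the number was also 0, where 17.2% of all genes stood. Rank product, the test that the methods of the study name, called 0 of the 10 and 293 of all 19899 genes. Without overlap between the 4 rats of each group were 0 of 10, against 4.57% of all genes. Of the 10, 8 had a positive and 2 a negative difference, with a median of 0.10 log2 units against 0.01 over all genes.

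In the pan-T group, the difference of C10 from REF was 0.30 ± 0.70 for Cd3d (SE, 95% confidence interval -1.20 to 1.79), 0.28 ± 0.48 for Cd3e, -0.26 ± 0.57 for Cd3g, 0.19 ± 0.36 for Cd5 and 0.08 ± 0.31 for Lck, with adjusted p-values between 0.818 and 0.926. The sign of 4 of these turned without C10 rat 1, when the values were -0.56 for Cd3d, -0.30 for Cd3e, -0.76 for Cd3g, -0.20 for Cd5 and -0.27 for Lck, none of them called. Without REF rat 1, which shared its array, Cd3d was -0.12, Cd3e -0.0081 and Lck -0.093, and without C10 rat 2 Cd3g was 0.17. A 2-fold difference in either direction lies inside the interval for Cd3d.

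Of the lineage markers, Cd4 had the smallest p in this comparison, at -0.20 ± 0.11 (95% confidence interval -0.43 to 0.03, limma adjusted p = 0.375). The exact permutation test of 4 rats against 4, two-sided, gave p = 0.114, where 0.0286 is the smallest p it allows. Without C10 rat 1 the difference in Cd4 was -0.17 (adjusted p = 0.603). Cd8a had 0.21 ± 0.42, Cd8b 0.09 ± 0.24 and Gzmb 0.10 ± 0.16, and without C10 rat 1 these were -0.28, -0.14 and 0.01. Foxp3 differed by 0.06 ± 0.05.

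The CF group compared to the REF group likewise had 0 of 10 called and 0% of all genes, and 0 of 10 without overlap beside 1.93% of all genes. Rank product called 0 of the 10 and 134 of all 19899 genes. Gzmb was the 1 gene at an unadjusted p under 0.05, with a difference of 0.47 ± 0.17 (95% confidence interval 0.11 to 0.84, limma adjusted p = 0.732), and at that threshold stood 6.41% of all genes. Its exact permutation p was 0.0857. The difference was positive within both dyes, 0.27 in Cy5 and 0.43 in Cy3, and within both sets of arrays, 0.52 on arrays 1 to 4 and 0.19 on arrays 5 to 8. Of the 10 genes 9 had a positive difference, with a median of 0.16 against 0.01 over all genes.

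For the I group compared to the REF group, 0 of 10 genes were called beside 0% of all genes, and 0 of 10 were without overlap beside 2.09%. Rank product again called 0 of the 10, and 68 of all 19899 genes. Gzmb differed by 0.37 ± 0.16 (95% confidence interval 0.04 to 0.71, limma adjusted p = 0.872), and 5.71% of all genes reached an unadjusted p under 0.05. The exact permutation p was 0.200. Its difference was 0.07 within Cy5 and 0.53 within Cy3. A second Gzmb probe, dimmer and not used in the fit, averaged 7.17 ± 0.33 in REF, 7.13 ± 0.27 in C10, 7.51 ± 0.26 in CF and 7.39 ± 0.28 in I (SD, n = 4 each), with CF highest and I next on both probes.

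Cd3d in the I group differed from REF by 0.40 ± 0.70, and this did not hold within dyes, with 2.41 in Cy5 and -1.30 in Cy3. The rats carrying the high signals were I rats 1 and 3, both in Cy5, and REF rat 3, in Cy3. Of the 10 genes, 9 had a positive difference in this comparison, with a median of 0.20 against 0.01 over all genes.

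**Figure D2:**
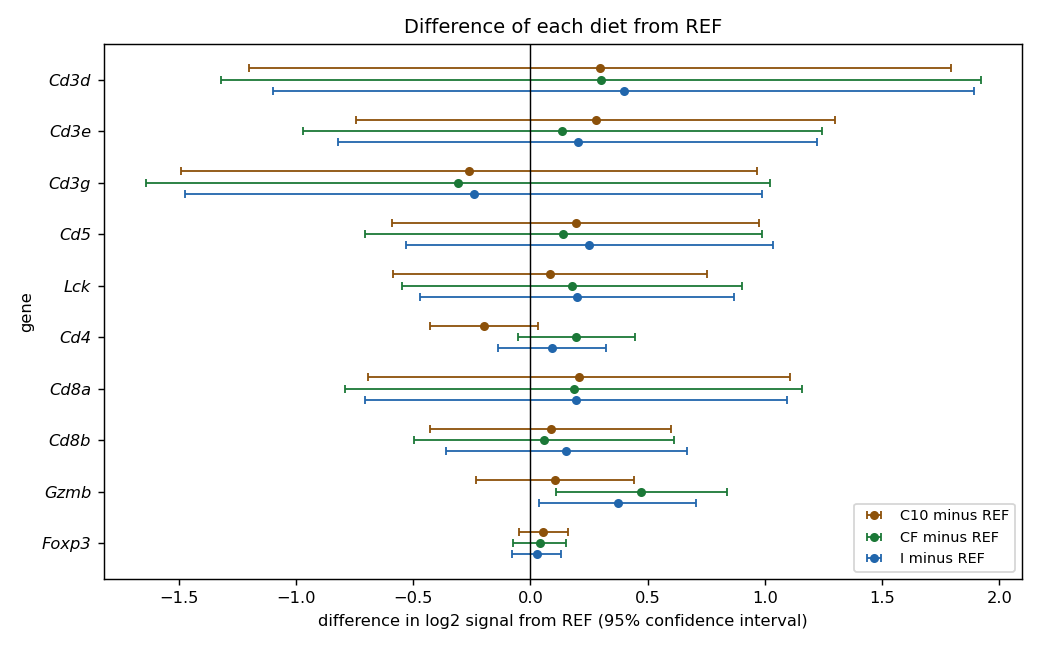
Difference in log2 signal of each diet from REF (horizontal axis) for the 10 T cell genes from the limma fit, with points for the estimate and bars for the 95% confidence interval (4 rats per diet). The intervals of Cd3d run from -1.20 to 1.79 in C10 minus REF, and only those of Gzmb in CF and in I lie to the right of 0, before adjustment over all genes.

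Between the fiber diets and cocoa, Cd4 had the smallest p of the 10. It was lower in C10 than in CF, at 6.85 ± 0.22 against 7.28 ± 0.25 (SD, n = 4), a fitted difference of -0.39 ± 0.11 (95% confidence interval -0.62 to -0.16, limma adjusted p = 0.131), which did not pass the threshold. The exact permutation p was 0.0857. The difference was -0.34 within Cy5, -0.51 within Cy3 and -0.34 on arrays 1 to 4, where all C10 rats were. Without C10 rat 1 it was -0.38 (adjusted p = 0.213), and over all fits leaving out 1 rat the adjusted p ran from 0.0523, without C10 rat 2, to 0.337. Against the I group, 7.24 ± 0.07, Cd4 differed by -0.29 ± 0.12 (95% confidence interval -0.54 to -0.04, limma adjusted p = 0.338, exact permutation p = 0.0571). C10 and I rats shared no array. All C10 rats were on arrays 1 to 4 and all I rats on arrays 5 to 8, so these diets could not be compared within either set. This holds for every difference of C10 from I given below. With a term for arrays 1 to 4 against 5 to 8, 20 of 19899 genes were called in C10 against I, in place of 109. The smallest limma adjusted p of the 10 T cell genes was then 0.706.

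In C10 compared to CF, 0 of 10 genes were called against 0.447% of all genes and 0 were without overlap against 3.55%, and 2, Cd4 and Gzmb, had an unadjusted p under 0.05, as 13.5% of all genes did. Gzmb differed by -0.37 ± 0.16 (limma adjusted p = 0.320, exact permutation p = 0.257), with 0.02 within Cy5 and -0.61 within Cy3. In C10 compared to I, 0 of 10 were called against 0.548%, 0 were without overlap against 5.72%, and Cd4 alone had an unadjusted p under 0.05. In CF compared to I, 0 of 10 were called against 0%, 0 were without overlap against 1.03%, and 0 had an unadjusted p under 0.05 against 2.87%. The differences between CF and I ran from -0.11 for Cd5 to 0.10 for Cd4. Rank product called none of the 10 in any of these comparisons. Of all 19899 genes it called 96 in C10 against CF, 218 in C10 against I and 34 in CF against I.

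Macrophage genes had differences of the same sign as Cd4 in C10. Of 12 macrophage genes tested, 10 had a negative difference in C10 against REF, and 11 against CF and against I. Their medians were -0.34, -0.54 and -0.50, against 0.013, 0.002 and 0.005 over all genes. Called were 0 of the 12 against REF, 1 against CF and 1 against I, beside 1.02%, 0.447% and 0.548% of all genes. The macrophage list level ran from -0.61 to 0.01 in C10, -0.20 to 0.20 in REF, 0.00 to 0.30 in CF and 0.03 to 0.31 in I. The defining macrophage markers were well above background in every rat, Cd68 at 9.07 to 10.22 and Csf1r, the receptor for colony stimulating factor, at 7.89 to 9.05. The part of macrophages in the Cd4 signal was not tested.

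Other genes of T cell biology were examined in 5 lists. Tested were 15 genes for T cell receptor signalling, 8 for helper T cells, 5 for regulatory T cells and 11 for naive T cells and homing. In the comparisons with REF 0 of these were called, beside 1.02% of all genes in C10 and 0% in CF and in I. The smallest p-values in C10 compared to REF were those of Cd247, the zeta chain of the receptor, at 0.70 (adjusted p = 0.644), the adaptors Skap1 at 0.13 (0.774) and Sit1 at 0.54 (0.777), the chemokine receptor Cxcr3 at -0.18 (0.418), and the transcription factors Bcl6 at 0.44 (0.437) and Maf at 0.22 (0.547), all adjusted over all genes in the limma fit. Next to these stood Il2ra, the interleukin-2 receptor alpha chain, at 0.11 (0.493), Tnfrsf18 at 0.11 (0.803), Lrrc32 at 0.04 (0.848), the transcription factor Lef1 at 0.47 (0.564), the homing receptor Ccr7 at 0.35 (0.656) and the interleukin-7 receptor Il7r at 0.23 (0.687).

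The cytotoxic effector list held the 1 gene that passed. Nkg7, a granule membrane protein of NK cells and cytotoxic T cells, fell by 0.81 log2 units in C10 compared to REF (SE 0.14, limma adjusted p = 0.0181), and was lower in C10 than in CF, by -0.94 (adjusted p = 0.0172), and than in I, by -0.97 (adjusted p = 0.0150). Its signal was well above background in all 16 rats, between 7.64 and 9.04. Rank product called it as well, and without C10 rat 1 the difference from REF was -0.97 (adjusted p = 0.0112). The call was lost without REF rat 1 (adjusted p = 0.0585), REF rat 2 (0.0771) or REF rat 4 (0.0580), and with the array as a fixed block it was lost in all 3 comparisons, at -0.75 against REF (adjusted p = 0.248), -1.07 against CF (0.351) and -1.04 against I (0.394). The fit with the array as a fixed block called 0 of 19899 genes in every comparison, so the loss was not particular to Nkg7. With a term for arrays 1 to 4 against 5 to 8 the adjusted p against I was 0.0636. Against CF the call was lost without CF rat 1 (adjusted p = 0.124), CF rat 2 (0.0836), C10 rat 3 (0.111) or C10 rat 4 (0.0577), and against I without I rat 2 (0.0740), I rat 3 (0.0518) or I rat 4 (0.0537). In the same list Runx3, a transcription factor of CD8 cells, had -0.41 (adjusted p = 0.160) and Faslg, the death ligand, -0.08 (adjusted p = 0.464). Of the 11 genes of the list, 4 had a positive and 7 a negative difference in C10 against REF, with a median of -0.08, and all 11 a negative one against CF and against I.

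Mast cell genes were lower in C10 beside this list. Of 8 genes tested, 6 were called lower in C10 than in REF, and 6 than in CF and than in I. Of all genes, 1.02%, 0.447% and 0.548% were called in these comparisons, in either direction. The mast cell list levels were -0.95 to -0.48 in C10 and -0.09 to 0.50 in the other diets. With the array as a fixed block 0 of 19899 genes were called in these 3 comparisons, so these calls were lost. That fit spends a term on each array, so the loss was common to all genes and not particular to mast cell genes. By RT-PCR the study reported Fcer1a and Mcpt2 significantly down-regulated in C10. Of 6 NK cell genes tested, 1 was called lower in C10 than in REF, Fcer1g at -0.67 (limma adjusted p = 0.0381), and 2 lower than in CF and than in I, Fcer1g and Tyrobp, adaptors that myeloid cells and, for Fcer1g, mast cells carry too. These differences were -0.81 and -0.73 against CF (adjusted p = 0.0257 and 0.0385) and -0.81 and -0.73 against I (0.0303 and 0.0491). Of the 6, 3 had a negative difference against REF, 6 against CF and 5 against I. The defining marker Ncr1 did not pass the filter on dim signals, and the part of NK or mast cells in the Nkg7 signal was not tested.

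The 7 genes with the widest ranges moved together from rat to rat, whatever the diet. Among Cd3d, Cd3e, Cd3g, Cd5, Lck, Cd8a and Cd8b, the 21 Pearson correlations over the 16 rats, after removal of the mean dye difference, lay between 0.867 and 0.994, and between 0.950 and 0.994 without Cd3g. Cd4, Gzmb and Foxp3 had correlations with Cd3e of 0.263, -0.243 and 0.391, and of 0.540, -0.338 and 0.408 without C10 rat 1. These are descriptions over the same libraries, and 393 genes, 1.98% of those tested, had a correlation above 0.9 with Cd3e. Among the 8 genes with a symbol most like Cd3e, with 0.983 to 0.989 over 16 rats, were Septin1, Slamf6, Cnr2, Ptprcap, Ccr6, Traf3ip3 and S1pr4.

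Of the 5 rats with the highest Cd3e signal, I rat 1 and CF rat 3 shared array 5, and I rat 3 and REF rat 3 shared array 7, while C10 rat 1 was on array 1 beside REF rat 1, which was not among them. Whether the array took part in these high signals was not tested on its own, but the correlation of Cd3e with other lists was also taken from differences within arrays, as given below.

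B cell and lymphoid follicle genes were high in the same rats. The follicle chemokines Cxcl13 and Ccl19 ranged from 6.98 to 11.50 and from 7.09 to 14.57. The B cell list level ran from -1.15 to 1.51 in C10, -1.05 to 1.37 in REF, -0.998 to 1.85 in CF and -1.12 to 1.67 in I. No B cell gene of the 9 tested was called in any of the 6 comparisons, where between 0% and 1.02% of all genes were. In limma fits with the B cell list level as a covariate, an alternative chosen after the data were seen, the standard error of Cd3d in C10 against REF was 0.17 in place of 0.70, and again 0 of the 10 T cell genes were called in any comparison.

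**Figure D3:**
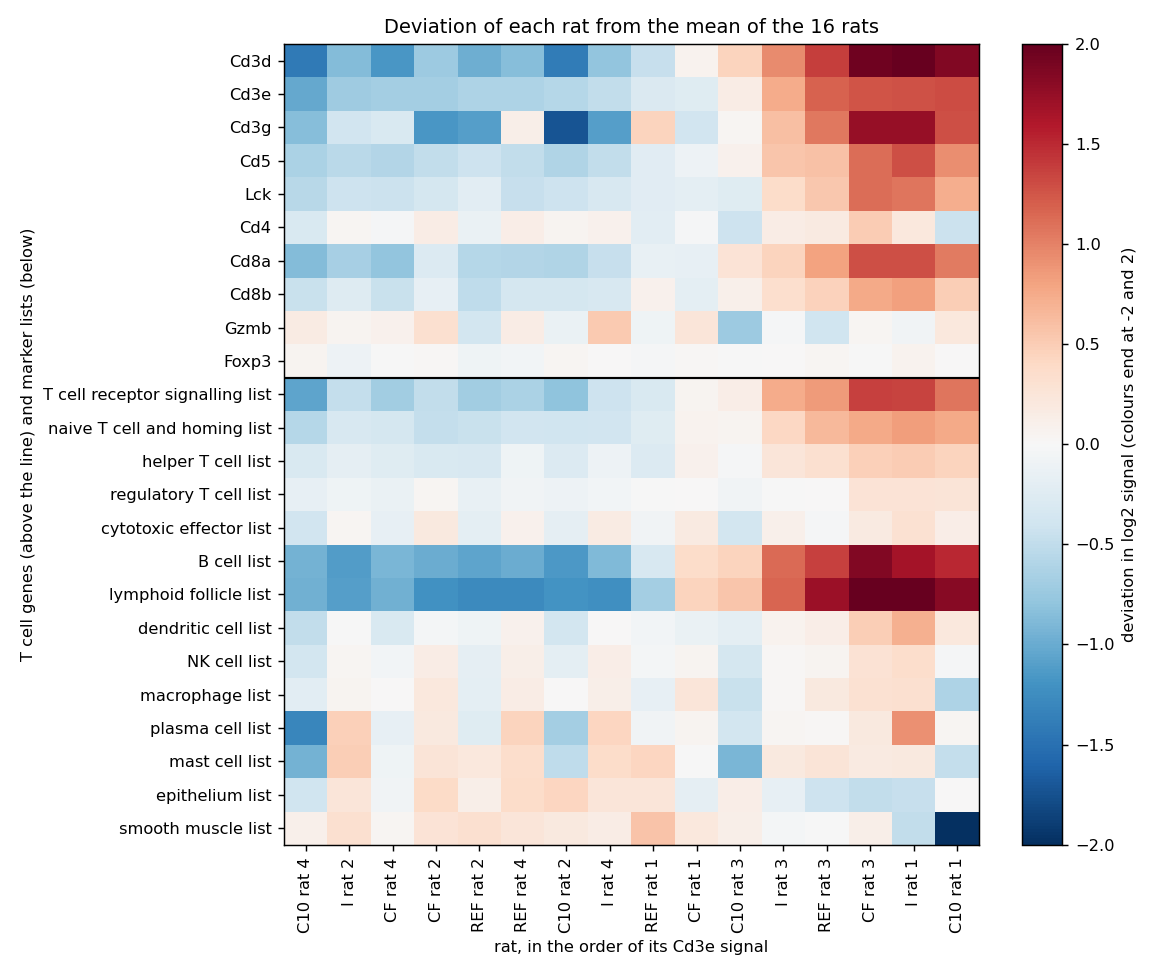
Deviation in log2 signal of each rat (columns, in the order of their Cd3e signal) from the mean of the 16 rats, for the 10 T cell genes (above the line) and for 14 marker lists (below it), with colours ending at -2 and 2. The 5 rats on the right are high in the CD3 genes, Cd5, Lck, Cd8a and Cd8b and in the B cell and lymphoid follicle lists, and the rats of all diets are mixed along the order.

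The relation of Cd3e with the mean level of 14 marker lists was tested over the rats by permutation, 100000 times within dye and two-sided, with adjustment over the 14 lists. Cd3e, the lists and this test were chosen with earlier results of these data known. The permutation treated rats of the same array as separate, so its p-values, also those for Cd4 and Gzmb below, can be too small. For differences within arrays, with 8 values, none of the 14 lists passed. The rats were unevenly placed, since 8 had B cell list levels close together at the low end and 8 were spread above them. Within the upper 8 rats Cd3e and the B cell list had r = 0.96 (exact permutation, adjusted p = 0.00972) and within the lower 8 r = 0.05 (adjusted p = 0.901). The rats were split on the B cell list level itself, and the lower 8 spanned only -1.15 to -0.88. With so small a span, the r of the lower rats cannot decide whether the relation holds among them. Over all 16 rats r was 0.97 (permutation p = 1e-05, the smallest possible, adjusted p = 2.8e-05) and rho 0.86 (p = 0.00022, adjusted p = 0.000616). It was 0.97 within Cy5, 0.99 within Cy3, 0.93 on arrays 1 to 4, 0.995 on arrays 5 to 8, 0.96 without the 2 rats farthest from the median of the list, 0.97 without C10 rat 1 and 0.96 for differences within arrays (exact permutation, adjusted p = 0.0681). By rho the differences within arrays had 0.69 (exact permutation, adjusted p = 0.486). Array 1 differed most, with Cd3e at 8.63 in C10 rat 1 and 7.04 in REF rat 1. The B cell list levels of these rats were 1.51 and -0.32. The value without array 1 was not computed.

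Over the 16 rats Cd3e also had high correlations with the lists of naive T cells and homing (r = 0.99, rho = 0.92), T cell receptor signalling (0.98, 0.91), lymphoid follicles (0.97, 0.87) and helper T cells (0.96, 0.91), each with an adjusted permutation p of 2.8e-05 for r. The regulatory T cell list had r = 0.83 (adjusted p = 0.00068) and the dendritic cell list r = 0.78 (adjusted p = 0.00068). Negative values were found for the smooth muscle list, r = -0.63 (adjusted p = 0.001015), and for the epithelium list, r = -0.63 (adjusted p = 0.0155), the latter not past the threshold by rho, -0.47 (adjusted p = 0.109). The smooth muscle value includes C10 rat 1, which had the highest Cd3e signal, 8.63, and the lowest smooth muscle list level, -2.09. Within the lower 8 rats none of the 14 lists passed, and within the upper 8 rats 5 did. The macrophage list had r = 0.04 (adjusted p = 0.883), the cytotoxic effector list 0.45 (adjusted p = 0.124) and the NK cell list 0.47 (adjusted p = 0.114).

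Cd4 varied with another list. In a family of 28 relations of Cd4 and Gzmb with the 14 lists, chosen after their values were seen, Cd4 and the macrophage list had r = 0.90 (permutation p = 1e-05, the smallest possible, adjusted p = 0.00028) and rho = 0.89 (p = 4e-05, adjusted p = 0.00112). The value was 0.89 within Cy5, 0.95 within Cy3, 0.92 on arrays 1 to 4, 0.76 on arrays 5 to 8, 0.83 without the 2 rats farthest from the median of the list, 0.89 without C10 rat 1 and 0.86 for differences within arrays. It was 0.92 within the 8 rats with the lowest and 0.90 within the 8 with the highest B cell list level. The relation did not pass the adjusted threshold, by exact permutation, for differences within arrays (adjusted p = 0.332), within Cy5 (0.0757), or within the lower (0.0810) or upper (0.243) 8 rats. Cd4 and the macrophage list both had their lowest diet mean in C10, 6.85 and -0.32. The permutation was not kept within diets, so a difference between diets can enter this r and its p. The relation within diets was not computed. With the B cell list Cd4 had r = 0.24 (permutation p = 0.388, adjusted p = 0.521), 0.45 without C10 rat 1 (adjusted p = 0.215), -0.60 on arrays 1 to 4 and 0.78 on arrays 5 to 8. Without C10 rat 1 its r went from 0.33 to 0.58 with the T cell receptor signalling list (adjusted p = 0.0886) and from 0.37 to 0.63 with the helper T cell list (adjusted p = 0.0554). The NK cell list, which holds Tyrobp and Fcer1g, had r = 0.78 with Cd4 (adjusted p = 0.00784). Gzmb passed with none of the 14 lists, and its highest value was r = 0.56 with the cytotoxic effector list (permutation p = 0.0205, adjusted p = 0.115).

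**Figure D4:**
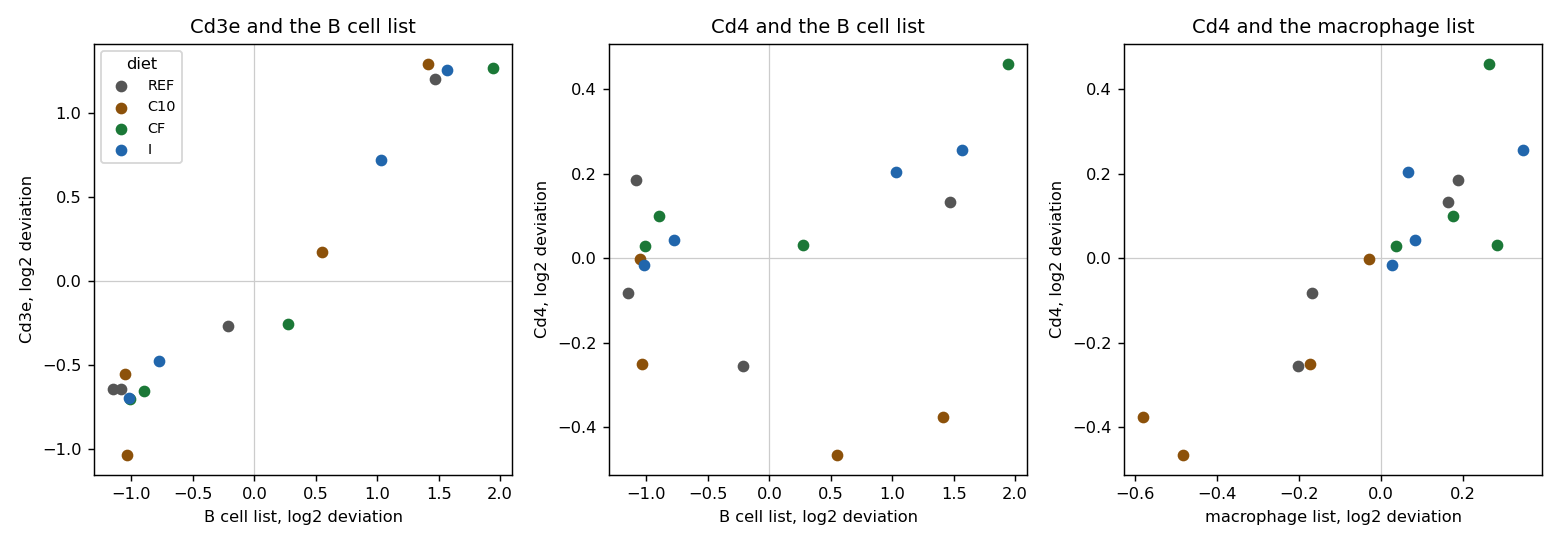
Deviation in log2 signal of Cd3e against the B cell list level (left), of Cd4 against the B cell list level (middle) and of Cd4 against the macrophage list level (right), after removal of the dye difference, with 1 point per rat coloured by diet. Cd3e lies along a line with the B cell list over the upper 8 rats (r = 0.96), Cd4 along one with the macrophage list (r = 0.90), and Cd4 has r = 0.24 with the B cell list, or 0.45 without C10 rat 1, the brown point at lower right.

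Cd3g departed from its neighbour Cd3d in some rats. Taking for each gene the deviation from its own mean over the 16 rats, Cd3g minus Cd3d was 0.98 in REF rat 4, 0.90 in REF rat 1, 0.86 in CF rat 4, 0.56 in C10 rat 4 and 0.49 in I rat 2, and -0.55 to -0.13 in the other 11 rats. These 5 rats came from all 4 diets, and all 5 had Cd3e signals below the mean. The separation was as wide without the offset, at 0.51 to 1.05 against -0.55 to -0.15, and in the signals processed by the scanner software, at 0.49 to 1.06 against -0.56 to -0.16. The rats were picked by this difference, so no test was made.

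**Figure D5:**
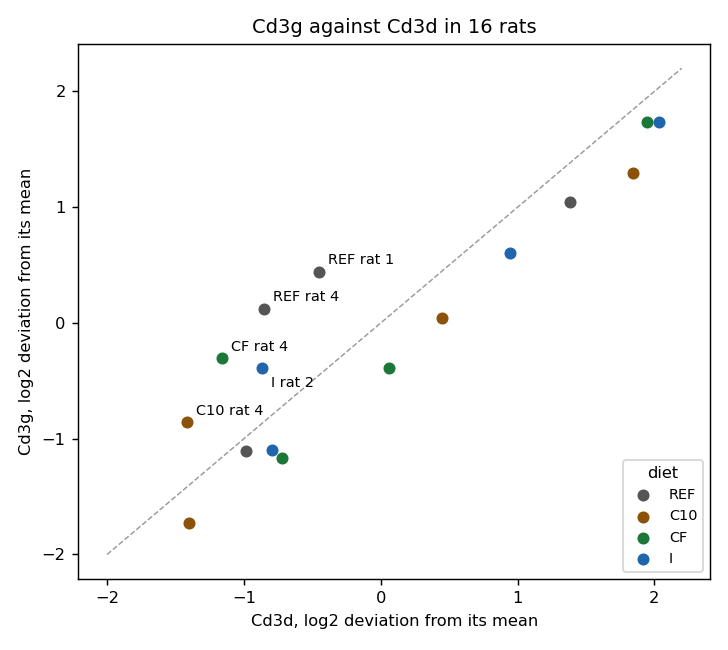
Deviation of Cd3g (vertical) against that of Cd3d (horizontal) from their own means over the 16 rats, in log2 units, with 1 point per rat coloured by diet and a dashed line where both are equal. The 5 named rats lie 0.49 to 0.98 above the line, and the other 11 lie below it.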

How the data were processed

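The deposited scanner files held, per the file headers, spot intensities from Agilent Feature Extraction 10.7.3.1 for 8 arrays of 62976 spots each, with the median signal and background intensity of each spot in both dyes. The authors' series table held normalized log2 values in 8 columns whose names matched no sample. These columns were not used here. As in the methods of the study, intensities were corrected with normexp and normalized by spatial and intensity loess and Aquantile, here with limma 3.58.1 in R 4.3.3. The offset of 50 and the loess spans of 0.4 (spatial) and 0.3 (intensity) were chosen here. Probes were averaged over their spots and named through RefSeq accessions (18005 of 30367). They were kept where well above background in at least 4 of 16 rats, and the brightest probe stood for a gene, which left 19899 genes (7978 of them without a symbol). The number of arrays limits the precision.

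Each dye of an array was treated as 1 rat, with diet and dye as terms, the array as a block (correlation 0.421) and Benjamini-Hochberg adjustment over all genes. Rats are separate animals, and labels give no pairing across groups. The script was tested on simulated data. Every T cell gene was named in each comparison. From the other T cell lists the genes named were those past the threshold against REF, and otherwise the 3 with the smallest p in C10 against REF. The genes most like Cd3e were the 8 with the highest correlation. Some genes that these rules name are not reported here. The members, lists and tests were chosen with earlier results of these data known. Alternatives covered background correction, normalization, filter, dye, array, a split by array number, probe rule, rank product and leaving out each rat.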

Additional observations from a re-analysis of the deposited data

Results flagged for a closer look

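Lck in CF rat 3 had a log2 signal of 8.43, far above the other 3 CF rats, with a gap to the nearest that was 0.8415 of the range of the group, above the Dixon critical value for 4 samples at the 95% level. It was the 1 such value among the 40 combinations of gene and diet examined, and chance alone gives about 1 in 20, or 2 of 40. CF rat 3 was also the highest or second highest of all rats for Cd3d, Cd3g, Cd5, Cd8a and Cd8b.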

How the results depend on the processing

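None of the 10 T cell genes was called in any of the 6 comparisons under any alternative run, and the count stayed at 0 in all fits leaving out 1 rat, where it ran from 0 to 0 and the smallest adjusted p, 0.0523, was that of Cd4 in C10 against CF. With probes required to be well above background in all 16 rats, only 7 of the 10 were tested. Directions of small differences changed more easily. In C10 against REF, leaving out 1 rat moved Cd3d from -0.56 to 0.80, Cd3e from -0.30 to 0.61, Cd3g from -0.76 to 0.17, Cd5 from -0.20 to 0.40, Lck from -0.27 to 0.27, Cd8a from -0.28 to 0.46 and Cd8b from -0.14 to 0.20. In CF against REF it moved Cd3d from -0.16 to 0.84, Cd3e from -0.17 to 0.56, Cd5 from -0.14 to 0.39, Lck from -0.10 to 0.41, Cd8a from -0.088 to 0.47 and Cd8b from -0.10 to 0.21, and in I against REF Cd3e from -0.0053 to 0.71, Cd3g from -0.49 to 0.15 and Cd8a from -0.034 to 0.55.

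With a term for arrays 1 to 4 against 5 to 8, Cd3g in C10 against REF was 0.088 and Cd3e in I against REF -0.013. Rank product gave -0.035 for Lck in C10 against REF and 0.088 for Cd3g in I against REF, and the processed signals gave -0.13 for Foxp3 in I against REF. With the B cell list level as a covariate, chosen after the data were seen, the differences in C10 against REF were -0.15 for Cd3d, -0.049 for Cd3e, -0.043 for Cd5, -0.12 for Lck, -0.057 for Cd8a and -0.062 for Cd8b. In CF against REF they were -0.11 for Cd3d, -0.17 for Cd3e, -0.072 for Cd5, -0.0066 for Lck, -0.063 for Cd8a and -0.073 for Cd8b, and in I against REF -0.026 for Cd3e and -0.0023 for Cd8a. The cause was not tested.

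Of the 14 marker lists, 9 were related to Cd3e over 16 rats. The number was 5 on arrays 1 to 4 and, in alternatives chosen after the data were seen, 5 in the 8 rats with the highest B cell list level, 0 in the 8 with the lowest and 0 for differences within arrays, all with 8 values in place of 16. Within the lower 8 rats r turned to -0.67 for lymphoid follicles, 0.76 for epithelium and 0.13 for smooth muscle. On arrays 1 to 4 it was 0.20 for epithelium and -0.64 for macrophages, and for macrophages it was -0.10 within Cy5 and -0.45 for differences within arrays. The rats sharing an array were compared through the array as a fixed block, which called 0 of the 19899 genes in each of the 6 comparisons. A term for each array leaves few values to estimate the spread, so calls are hard to reach in that fit. No replicate block was fitted, since the labels give no replicate numbers. Dim signals limited Foxp3, Cd5 and Cd8b, and 4 rats per diet left wide intervals for the CD3 genes.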
